A study of Mus musculus with 2 samples.

Results

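The genes described here encode the proteasome, measured in spleen cells from a mouse model of arthritis that follows immunization with glucose-6-phosphate isomerase (GPI). They were taken as every gene whose symbol starts with Psma, Psmb, Psmc, Psmd, Psme, Psmf or Psmg and that had a probe set annotated with that symbol alone. The rule found 48 of the 12393 genes on the arrays. Of these, 46 encode parts, activators or assembly factors of the proteasome, and the 2 others, Psmc3ip and Psme3ip1, encode proteins named after a proteasome partner. GPI-immunized mice were male DBA/1 mice, obtained at 6 to 8 weeks of age and injected intradermally with 300 μg of recombinant human GPI fused to glutathione S-transferase (GPI-GST). Control mice of the same sex, strain and age received 100 μg of GST. Both antigens were given in complete Freund's adjuvant, so the adjuvant is shared by both groups. Spleens were taken on day 10 from 3 mice per group, and RNA from whole splenocytes was hybridized to 1 Affymetrix expression array per group. No source used here says whether the 3 spleens were pooled. With 1 array per group no test was possible, and every ratio below describes these 2 arrays.

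The proteasome is the large protease that degrades proteins tagged with ubiquitin. Its core particle is a barrel of alpha and beta rings with the catalytic beta subunits inside, and the regulatory particle caps the barrel, recognises ubiquitin, unfolds the substrate with a ring of ATPases and feeds it inward. In lymphoid tissue such as spleen, and after interferon-γ, the catalytic subunits Psmb8, Psmb9 and Psmb10 take the places of Psmb5, Psmb6 and Psmb7 in newly built cores. This form is the immunoproteasome, which with the PA28 activator (Psme1 and Psme2) favours peptides that fit major histocompatibility complex (MHC) class I molecules.

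The core and regulatory subunits were slightly higher on the GPI-immunized array, whereas the 4 immunoproteasome genes were close to level. Of the core and regulatory subunits only Psmb5, Psmb6 and Psmb7 are replaced in the immunoproteasome, so most of them belong to both forms. All 14 core subunits and all 17 regulatory particle subunits that passed the signal filter had a ratio (GPI-immunized over control signal) above 1, against 57.5% of all genes. Their median log2 ratios were 0.26 for the core and 0.28 for the regulatory particle, beside 0.06 over all genes. Of the 4 immunoproteasome genes, 2 lay above and 2 below 1, with a median log2 ratio of 0.02. The differences were small, and no gene of the 48 reached a 2-fold ratio in either direction. A gene passed the filter when the higher of its 2 signals was at least 50.2, the median of all signals, and 6961 genes including 47 of the 48 did so. The exception was Psma8, the testis form of an alpha subunit, with signals of 14.5 (GPI-immunized) and 17.0 (control).

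The share of genes above 1 depended on how the arrays were scaled. The deposited medians were 51.8 after GPI-GST and 48.6 after GST. With each array divided by its median, the share of all genes with a ratio above 1 was 44.9% instead of 57.5%, with quantile normalization 46.4% and with loess centring 48.2%. Under these 3 scalings the 14 core subunits still had ratios above 1, and the regulatory particle kept 15, 15 and 16 of its 17 subunits above 1. The subunits that crossed were Psmd4, under all 3, and Psmc2, under division by the median and quantile normalization. Averaging all probe sets of a gene, dim ones included, instead put Psma1, Psma6, Psmc6, Psmd11 and Psmd4 below 1 and left 26 of the 31 above it. The other way to judge size is the disagreement between probe sets that read the same gene on the same pair of arrays. Among 15 of the proteasome-named genes its SD was 0.14 on the log2 scale, a factor of 1.10. Over 2538 genes its SD was 0.28, a factor of 1.21, and this wider spread is the one used below. It does not include differences among mice or among hybridizations. Some ratios called within it would lie beyond the narrower factor. Of the 31 core and regulatory subunits, 16 were higher as deposited by more than the factor of 1.21, against 24.1% of all genes. None were lower by more than it, against 15.1%. Unlike the side of 1, such size calls depended strongly on the scaling, and fewer subunits lay beyond the factor with the 3 others. After division by the median, the median log2 ratio was 0.16 for the core and 0.19 for the regulatory particle, both under 0.28. The counts beyond the factor given below, and the shares of all genes, are as deposited.

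**Figure D1:**
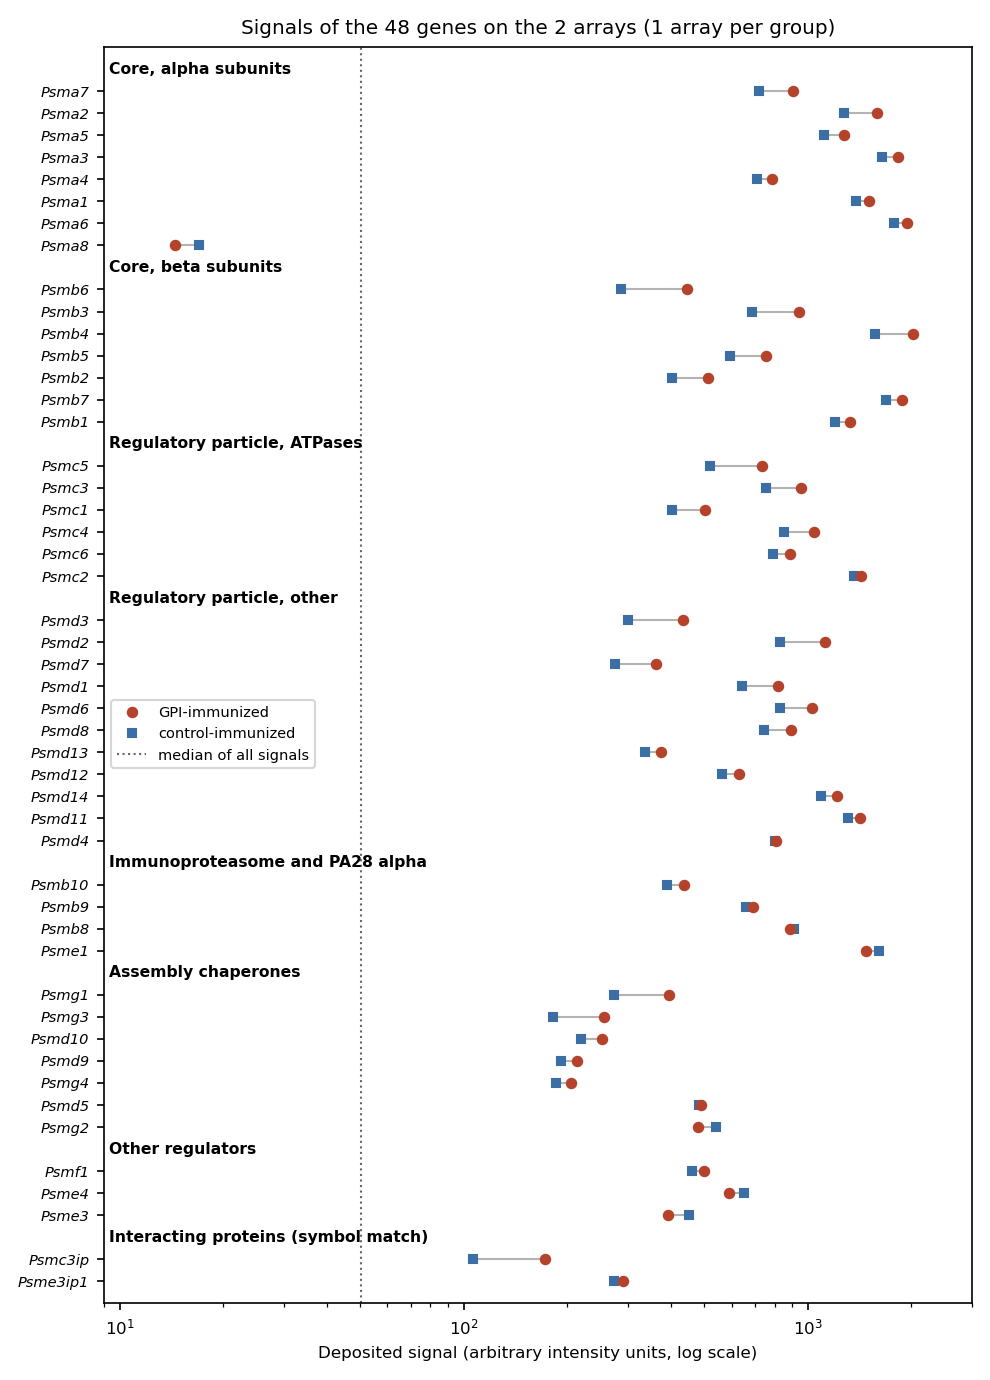
Deposited signal (horizontal axis, intensity units on a log scale) of the 48 genes on the GPI-immunized array (circles) and the control array (squares), 1 array per group, grouped by role and ordered by ratio. The circle lies right of the square for all core and regulatory subunits except Psma8, which lies left of the filter at 50.2, and Psmd4 almost coincides at 806.0 GPI-immunized and 802.4 control.

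Among the catalytic subunits, the highest ratio belonged to Psmb6, which carries the caspase-like site. Its signal was 445.0 in GPI-immunized and 286.8 in control splenocytes, a ratio of 1.55. Psmb6 and Psmc3ip were the 2 of 47 genes at least 1.5-fold higher, against 7.04% of all genes, and 0 of 47 were at least 1.5-fold lower, against 3.23%. Psmb6 had a log2 ratio of 0.63 as deposited and was under the 1.5-fold threshold with each of the other scalings (0.54 for division by the median, 0.57 for quantile normalization and 0.57 for loess centring). Psmb5, the chymotrypsin-like subunit, had signals of 756.5 (GPI-immunized) and 595.2 (control), a ratio of 1.27. Psmb7, the trypsin-like subunit, had 1872.1 after GPI-GST and 1692.8 after GST, a ratio of 1.11. The 3 constitutive active sites were thus all higher as deposited, by unequal amounts, and the ratio of Psmb7 lay within the spread between probe sets.

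Of their immunoproteasome counterparts, Psmb8 and Psmb9 differed less between the arrays than the subunits they replace, and Psmb10 about as much as Psmb7. Psmb8 (LMP7), which replaces Psmb5, had signals of 884.9 in GPI-immunized and 910.2 in control splenocytes, a ratio of 0.972. Psmb9 (LMP2), which replaces Psmb6, had 693.9 (GPI-immunized) and 659.5 (control), a ratio of 1.05, and was below 1 after division by the median (0.987) and quantile normalization (0.990). Psmb10 (MECL-1), which replaces Psmb7, had 436.3 after GPI-GST and 389.2 after GST, a ratio of 1.12. All 3 lay within the factor of 1.21. Subtracting the log2 ratio of each constitutive partner, a step in which any factor common to one array cancels, gave -0.39 for Psmb8 minus Psmb5, -0.56 for Psmb9 minus Psmb6 and 0.02 for Psmb10 minus Psmb7. A difference of 2 ratios has a wider spread than 1 ratio, with an SD of 0.39 when the spread between probe sets is taken for both. Psmb9 minus Psmb6 exceeded 1 such SD, Psmb8 minus Psmb5 was at it, and Psmb10 minus Psmb7 lay well within it. The difference between the medians of the immunoproteasome and the core was -0.24.

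**Figure D2:**
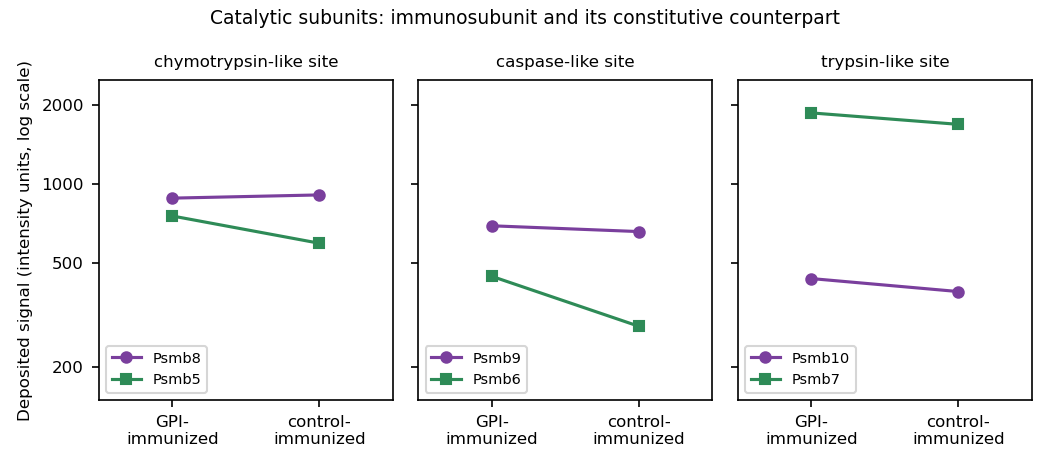
Deposited signal (vertical axis, log scale) of each immunosubunit (circles) and its constitutive counterpart (squares) on the GPI-immunized array (left) and the control array (right), 1 array per group. The line of Psmb6 is the steepest (ratio 1.55) and the lines of Psmb8 and Psmb9 are nearly flat. The heights of different genes cannot be compared, since each is read by its own probes.

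The PA28 activator opens the core without using ubiquitin. Its alpha subunit Psme1 had signals of 1479.0 in GPI-immunized and 1610.5 in control splenocytes, a ratio of 0.918. The probe set for the beta subunit is annotated with both Psme2 and Psme2b and was therefore not counted. It gave 1049.9 (GPI-immunized) and 1048.2 (control), a ratio of 1.00. Neither PA28 reading was higher by more than the spread between probe sets.

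The promoters of the catalytic subunits are shown because constitutive and inducible subunits are known to be switched on by different factors. NRF1 (Nfe2l1) and NRF2 (Nfe2l2) act on constitutive proteasome genes through the antioxidant response element, and interferon-γ induces immunoproteasome genes, in part through IRF1. Sequences are from RefSeq on GRCm38.p6, from 250 bases before to 50 after the annotated start, written 5′ to 3′ on the strand of the gene. Psmb6 is at chr11:70525107-70525406 (+), Psmb5 at chr14:54617946-54618245 (-), Psmb9 at chr17:34187281-34187580 (-) and Psmb8 at chr17:34197945-34198244 (+). Capitals mark the antioxidant response element TGACNNNGC in Psmb6 and Psmb5, the CCAAT box on the opposite strand in Psmb9, and the gamma-activated site TTCNNNGAA in Psmb8.
Psmb6: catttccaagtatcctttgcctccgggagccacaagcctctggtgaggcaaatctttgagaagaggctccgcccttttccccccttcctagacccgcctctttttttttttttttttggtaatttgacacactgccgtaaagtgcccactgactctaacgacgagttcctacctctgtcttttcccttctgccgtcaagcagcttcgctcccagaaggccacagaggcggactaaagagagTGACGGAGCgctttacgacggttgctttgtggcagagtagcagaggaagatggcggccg
Psmb5: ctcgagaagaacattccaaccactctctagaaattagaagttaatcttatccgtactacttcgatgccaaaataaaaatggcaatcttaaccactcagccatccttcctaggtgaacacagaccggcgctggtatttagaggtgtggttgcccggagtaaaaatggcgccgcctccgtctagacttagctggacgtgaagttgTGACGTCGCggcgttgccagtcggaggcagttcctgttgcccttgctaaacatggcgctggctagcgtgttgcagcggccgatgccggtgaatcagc
Psmb9: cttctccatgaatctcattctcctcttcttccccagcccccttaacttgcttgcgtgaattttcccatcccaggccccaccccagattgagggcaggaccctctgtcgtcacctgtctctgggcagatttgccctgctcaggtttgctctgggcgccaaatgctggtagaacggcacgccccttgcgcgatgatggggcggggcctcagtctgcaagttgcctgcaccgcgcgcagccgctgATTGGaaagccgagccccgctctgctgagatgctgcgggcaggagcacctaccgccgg
Psmb8: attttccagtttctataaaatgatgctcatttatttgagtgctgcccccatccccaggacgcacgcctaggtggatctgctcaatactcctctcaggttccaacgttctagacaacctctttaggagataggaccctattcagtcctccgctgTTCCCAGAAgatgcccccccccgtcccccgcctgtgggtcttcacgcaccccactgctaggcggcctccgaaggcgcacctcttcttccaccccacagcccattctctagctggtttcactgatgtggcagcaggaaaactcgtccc

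In these windows the antioxidant response element began 9 bases before the start of Psmb6 and 47 bases before that of Psmb5. The 6 genes that held it had unequal ratios, 1.55 for Psmb6, 1.27 for Psmb5, 1.12 for Psmc6, 1.12 for Psmd12, 1.11 for Psmd9 and 0.904 for Psme4, and the last 4 lay within the spread between probe sets. It was not found in the windows of Psmb8, Psmb9, Psmb10 or Psme1. Most core and regulatory genes also lacked it, since 2 of 11 core and 2 of 14 regulatory particle genes with a window held it. Each printed window held 1 match in all to the 4 motifs searched on both strands (TGACNNNGC, TTCNNNGAA, CCAAT and GAAANNGAA, the core of the interferon-stimulated response element), so no matches overlapped there. Over the 40 of the 48 genes with a promoter in the table, the antioxidant response element was found in 6 (15.0%), against 14.0% of 27025 genes. GAAANNGAA was found in 7 (17.5%, against 9.76%), TTCNNNGAA in 3 (7.5%, against 9.55%) and CCAAT in 15 (37.5%, against 41.1%). Of the 7 with GAAANNGAA only Psme1 is an immunoproteasome gene, and of the 3 with TTCNNNGAA only Psmb8 is. The matches are descriptions of the letters and not of binding.

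In the core, the beta subunits had a higher median ratio than the alpha subunits, with overlapping ranges. The 7 beta subunits ran from 1.10 to 1.55 with a median log2 ratio of 0.35, and 5 of them exceeded the factor of 1.21. The 7 alpha subunits ran from 1.09 to 1.26 with a median log2 ratio of 0.16, and 2 exceeded it. Over all genes 24.1% were higher by more than this factor, a share near that of the alpha subunits. These counts are as deposited. After division by the median, Psmb4 (log2 ratio 0.27), Psmb5 (0.25), Psmb2 (0.25), Psma7 (0.24) and Psma2 (0.23) no longer exceeded the factor. The gap between the alpha and beta medians was not tested. The SD of 0.28 between probe sets is a spread of single ratios and does not measure such a gap. Psmb3, a structural beta subunit without an active site, had signals of 940.1 after GPI-GST and 687.5 after GST, a ratio of 1.37. Its other probe set gave 786.2 in GPI-immunized and 568.8 in control splenocytes, a ratio of 1.38, so the 2 readings of this gene were close. Psmb4 had 2022.1 (GPI-immunized) and 1570.0 (control), a ratio of 1.29, and its other probe set gave 1.04. Psmb2 had 511.7 after GPI-GST and 403.9 after GST (1.27), while Psmb1 had 1326.4 in GPI-immunized and 1202.8 in control splenocytes (1.10).

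The alpha subunits form the outer rings that gate the entry of substrates. The highest were Psma7, with 908.2 (GPI-immunized) and 722.0 (control), a ratio of 1.26, and Psma2, with 1585.7 after GPI-GST and 1271.3 after GST (1.25). The second probe set of Psma7 gave 840.0 in GPI-immunized and 532.2 in control splenocytes, a ratio of 1.58. The 5 others lay close together, with ratios of 1.14 (Psma5), 1.12 (Psma3), 1.11 (Psma4), 1.09 (Psma1) and 1.09 (Psma6). These 5 were within the factor of 1.21, and none had a signal under 712.2 on either array.

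The ATPase ring of the regulatory particle unfolds the substrate, and its 6 subunits ran from 1.05 to 1.42 with a median log2 ratio of 0.30. Psmc5 was the highest, with signals of 738.2 (GPI-immunized) and 520.0 (control), a ratio of 1.42. Psmc3 had 955.3 after GPI-GST and 755.6 after GST (1.26). Psmc1 had 503.6 in GPI-immunized and 403.0 in control splenocytes (1.25), and Psmc4 had 1041.8 (GPI-immunized) and 855.1 (control), a ratio of 1.22. These 4 of 6 exceeded the spread between probe sets as deposited, against 24.1% of all genes. Only Psmc5 did so with division by the median, quantile and loess scaling (log2 ratios 0.41, 0.43 and 0.44). Psmc6 had 886.2 after GPI-GST and 792.7 after GST (1.12), and its second passing probe set lay on the other side of 1 (0.959). Psmc2 had 1428.9 in GPI-immunized and 1358.8 in control splenocytes (1.05), whereas its second probe set gave 1.25.

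The 11 other subunits of the regulatory particle hold the ubiquitin receptors, the scaffold and the deubiquitinating enzyme, and ran from 1.00 to 1.44. Psmd3, a scaffold subunit of the lid, had signals of 433.9 (GPI-immunized) and 300.9 (control), a ratio of 1.44. Psmd2, the base scaffold that docks ubiquitin shuttle proteins, had 1120.2 after GPI-GST and 831.8 after GST (1.35). Psmd7, the partner of the deubiquitinase, had 362.5 in GPI-immunized and 274.3 in control splenocytes (1.32). Psmd1, the other large base scaffold (1.28), and the lid subunit Psmd6 (1.24) also exceeded the factor of 1.21. The lid subunit Psmd8 (1.20) was just under it. Thus 5 of these 11 subunits were higher by more than this factor as deposited, against 24.1% of all genes. After division by the median, Psmd1 (log2 ratio 0.26) and Psmd6 (0.22) no longer were. The deubiquitinase Psmd14 removes the ubiquitin chain before degradation and had 1215.3 (GPI-immunized) and 1091.1 (control), a ratio of 1.11. The lid subunits Psmd13, Psmd12 and Psmd11 had ratios of 1.12, 1.12 and 1.09. Psmd4, a ubiquitin receptor, was level at 806.0 after GPI-GST and 802.4 after GST, and its 3 passing probe sets ran from 0.868 to 1.10.

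**Figure D3:**
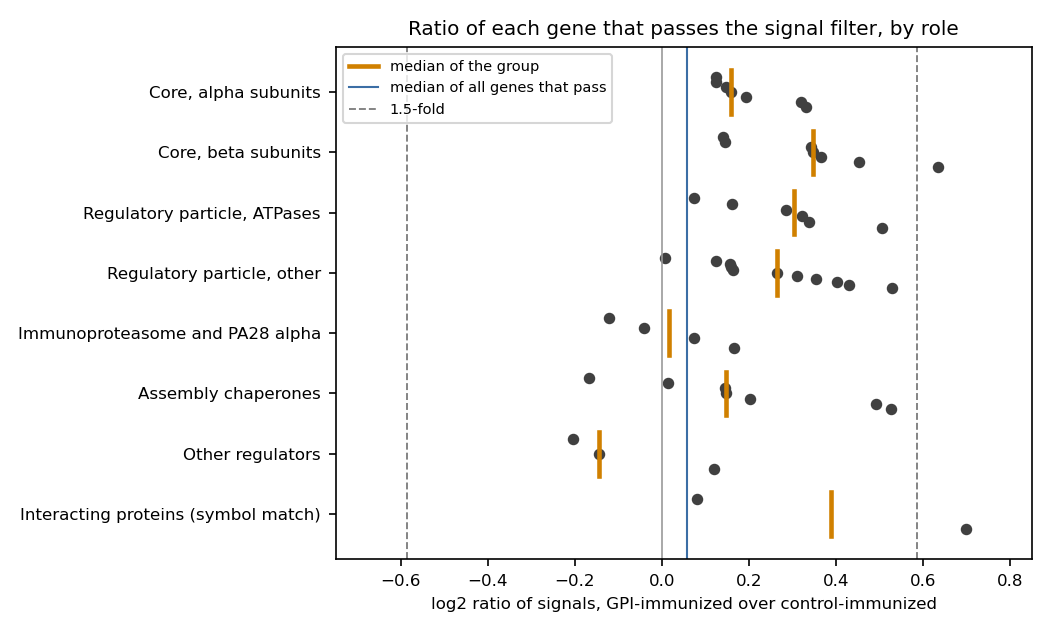
Log2 ratio of signals, GPI-immunized over control (horizontal axis), for the 47 genes that pass the signal filter, 1 point per gene, by role (vertical axis), with the median of each group as a thick bar, the median of all genes (0.06) as a thin line and the 1.5-fold ratios dashed. All points of the 4 upper groups lie right of 0, and the immunoproteasome group straddles it with a median of 0.02.

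Over the 31 core and regulatory subunits the ratio was lower for brighter probe sets, with a rank correlation of -0.53 between the log2 ratio and the mean log2 signal (Pearson's r -0.53). Over all 6961 genes it was -0.025 (Pearson's r -0.039). The points share the same 2 arrays, and genes are not independent replicates. The subunits were read at signals from 362.5 to 2022.1 on the GPI-immunized array and from 274.3 to 1785.5 on the control array. Among the 3862 genes whose higher signal reached the 75th percentile, the median log2 ratio was 0.05 and 58.0% lay above 1, and all 31 subunits were among them.

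Assembly chaperones, which guide the building of new proteasomes and leave the finished particle, were mixed. Psmg1, which starts the alpha ring together with Psmg2, had signals of 394.4 in GPI-immunized and 273.7 in control splenocytes (1.44). Its partner Psmg2 had 480.3 (GPI-immunized) and 539.8 (control), a ratio of 0.890, so the pair lay on opposite sides of 1. Psmg3 had 256.1 after GPI-GST and 182.2 after GST (1.41), and Psmg4, with which it forms the other alpha ring chaperone, had 205.4 in GPI-immunized and 185.7 in control splenocytes (1.11). The chaperones of the ATPase ring, Psmd10 (gankyrin), Psmd9 and Psmd5, had ratios of 1.15, 1.11 and 1.01, and Psmd5 was below 1 under the 3 other scalings. In all, 2 of the 7 assembly chaperones were higher by more than the factor of 1.21, a share near the 24.1% of all genes.

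The remaining activators and the inhibitor lay near or under 1. Psme3 (PA28γ), a nuclear activator, had signals of 392.2 (GPI-immunized) and 451.8 (control), a ratio of 0.868, and its second probe set gave 0.948. Psme4 (PA200), another nuclear activator, had 590.1 after GPI-GST and 652.9 after GST (0.904), with probe sets running up to 1.09. Psmf1 (PI31), first described as an inhibitor of the core, had 500.7 in GPI-immunized and 461.1 in control splenocytes (1.09), with probe sets down to 0.810. None of the 3 had a represented ratio beyond the factor of 1.21. Psme3 and Psme4 lay beyond the narrower factor of 1.10, and the probe sets of Psme4 and Psmf1 disagreed in direction.

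The highest ratio of the 48 genes belonged to a gene that is no proteasome subunit. Psmc3ip encodes a cofactor of homologous recombination, best known from meiosis, that was found through its binding to the ATPase Psmc3. It had signals of 172.7 (GPI-immunized) and 106.5 (control), a ratio of 1.62, which stayed above 1.5 under the 3 other scalings (1.52, 1.52 and 1.53). Psme3ip1, which binds Psme3, had 289.6 after GPI-GST and 273.9 after GST (1.06).

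Genes that work with the proteasome were compared in lists, to be read against the 57.5% of all genes with a ratio above 1 (44.9% to 48.2% under the other scalings). Of 7 further parts and partners, 6 had ratios above 1 (median log2 ratio 0.18), led by Ecpas, an adaptor that binds the assembled particle, with 199.7 in GPI-immunized and 135.5 in control splenocytes (1.47), and the proteasome deubiquitinase Uchl5 (1.32). Pomp, the maturation factor of the core, had a ratio of 1.15. Of 8 genes that deliver ubiquitinated proteins, 7 had ratios above 1 (median 0.21), with the segregase cofactor Ufd1 at 1.30, the shuttle Rad23b at 1.27 and the segregase Vcp at 1.15, and the shuttle Ubqln2 at 0.856. The transcription factors and processing enzymes of proteasome genes were divided, 3 of 8 being above 1 (median -0.06). Nfe2l2 had signals of 595.3 (GPI-immunized) and 475.0 (control), a ratio of 1.25, Nfe2l1 had 158.8 after GPI-GST and 148.6 after GST (1.07), and their dimer partner Mafk was at 0.798. In these 3 lists 0 genes reached 1.5-fold, against 7.04% of all genes higher and 3.23% lower.

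The MHC class I pathway, which receives the peptides of the immunoproteasome, was close to level. Of 11 genes, 5 were above 1 and 6 below, with a median log2 ratio of -0.003. The peptide transporter Tap1, a neighbour of Psmb9 in the MHC, had signals of 242.7 in GPI-immunized and 276.5 in control splenocytes (0.878). The peptide trimming enzyme Erap1 had a ratio of 1.25, the chaperone Canx 1.18 and the tapasin relative Tapbpl 0.858. Of 13 genes of interferon-γ signalling and response, which induces immunoproteasome genes, 3 were above 1 and 10 below (median -0.16). The chemokine Cxcl9 had 47.7 (GPI-immunized) and 77.9 (control), a ratio of 0.612, the regulator Irf2 0.743, the MHC class II transactivator Ciita 0.749 and the receptor chain Ifngr2 1.35. Irf1 was level, with 422.8 after GPI-GST and 421.1 after GST. Cxcl9 was the 1 gene of these 2 lists past 1.5-fold, which is near the 3.23% of all genes at least 1.5-fold lower. Its signal on the GPI-immunized array was under the filter signal of 50.2.

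Other large housekeeping complexes, taken by their symbols, differed from one another on the same arrays. All 8 measured subunits of the CCT chaperonin, which folds actin and tubulin, that passed the filter had ratios above 1 (median log2 ratio 0.32). Of 71 subunits of the respiratory chain and ATP synthase, 56 were above 1 (median 0.16), and of 45 cytosolic ribosomal proteins 27 were above 1 (median 0.02). These counts are as deposited, where 57.5% of all genes lay above 1, and that of the ribosomal proteins (60%) was near this share. The medians of the core and the regulatory particle thus lay between those of the respiratory chain and CCT, and the difference between lists could not be tested. None of the 47 proteasome-named genes was at least 2-fold higher or lower, against 2.23% and 0.445% of all genes.

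**Figure D4:**
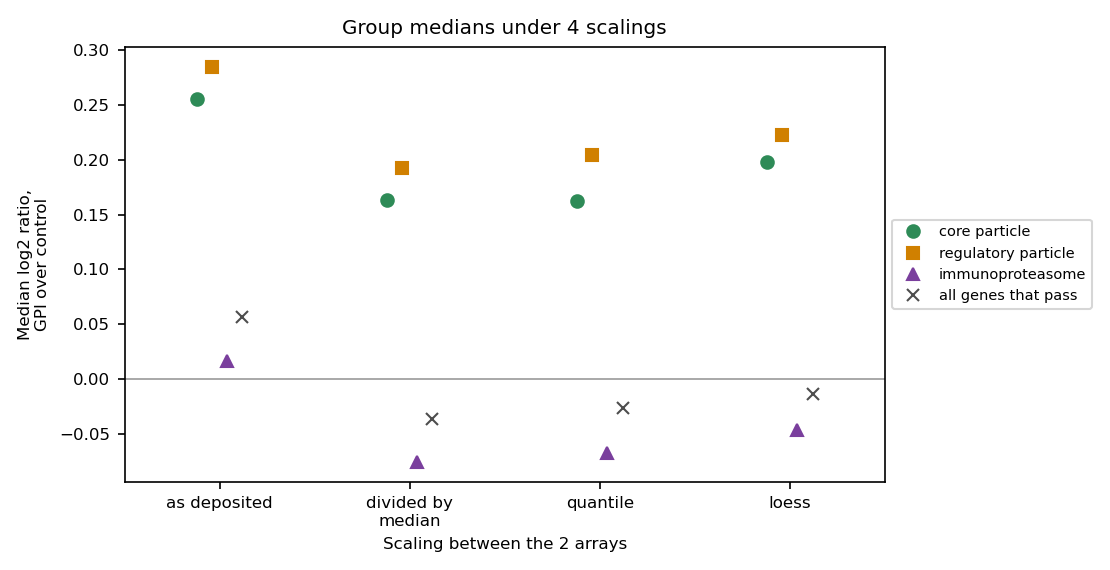
Median log2 ratio, GPI-immunized over control (vertical axis), of the core particle, the regulatory particle, the immunoproteasome and all genes that pass the filter, under 4 scalings between the 2 arrays (horizontal axis). The core and regulatory medians stay above 0.16 and above the median of all genes in each scaling, while the immunoproteasome median lies below that of all genes.

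Cell type markers were also unequal between the arrays, and in whole splenocytes a change in the number of cells of a type and in RNA per cell cannot be told apart. With sufficient signal, 13 of 13 neutrophil markers had ratios above 1, against 57.5% of all genes as deposited. They ran from 1.12 (S100a9) to 3.28 (Mmp8) with a median log2 ratio of 1.00 (summed signals 50871 in GPI-immunized and 34974 in control splenocytes). Of these markers, 10 were at least 1.5-fold and 6 at least 2-fold higher, against 7.04% and 2.23% of all genes. All 7 B cell markers (12259 GPI-immunized, 16028 control) and all 9 T cell markers (1370.9 after GPI-GST and 1878.5 after GST) that passed the filter had ratios below 1. Under the filter, the B cell gene Pax5 had 15.0 (GPI-immunized) and 6.4 (control), and the T cell gene Cd8b1 had 18.2 and 29.6. Macrophage and dendritic cell markers were above 1 in 6 of 9 (4688 in GPI-immunized and 4270 in control splenocytes) and erythroid markers in 3 of 6 (17274 GPI-immunized, 18679 control). Both counts were near the 57.5% of all genes. Plasma cell markers were above 1 in 3 of 4 (8685 after GPI-GST and 7514 after GST), among them Xbp1 at 1.89. No listed marker had a signal of 0, and the testis and thymic epithelium genes Psma8, Foxn1 and Prss16 were all under the filter. The part of these cell types in the ratios of the proteasome genes, and of the lists compared with them, was not tested.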

How the data were processed

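Deposited intensities were used as given, 1 linear signal per probe set and array. The authors obtained them with what the paper calls gene expression software, and no source used here states how probes were summarized or arrays scaled. The sample labels describe labelled cDNA and the paper biotinylated cRNA. Of 22626 probe sets besides 64 controls, 20380 carry 1 symbol in the platform annotation. Gene IDs of all 48 genes matched RefSeq (GRCm38.p6) with the same symbol. Where a gene had several probe sets, the one of highest mean log2 signal was kept, and 3 signals of 0 were set to 0.1. The ratio was GPI-immunized over control signal, read at 1.5-fold and 2-fold where the higher signal reached the 50th percentile (50.2). The number of arrays, 1 per group, limits the precision, and no p-value is given. Alternatives were 3 scalings, floors at the 25th and 50th percentiles, the mean over probe sets, leaving out probe sets ending in _s_at or _x_at, and filters. The steps were tested on simulated data. Members, lists and rules were chosen with earlier results of these data known. Every gene taken by the symbol rule was to be named, with up to 4 genes per list furthest from 1, and genes beyond these were chosen after their values were seen. The spread between probe sets as a yardstick, the count of subunits above 1 and the 3 complexes used for comparison were added after the data were examined. Protein identities were planned and not computed here. Python 3.11.15, numpy 2.4.6, pandas 2.3.3, statsmodels 0.14.6 and matplotlib 3.10.9 were used.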

Additional observations from a re-analysis of the deposited data

How the results depend on the processing

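The median log2 ratio of the core (0.26) was 0.16 after division by the median and 0.16 with quantile normalization, that of the regulatory particle (0.28) was 0.19 and 0.20 under these and 0.20 averaged over probe sets, that of all 47 genes (0.16) was 0.0703, 0.10 and 0.10 with division, quantile and loess scaling, and that of assembly chaperones and other regulators (0.13) was 0.0402 after division by the median. The median of all genes moved the same way, to -0.04, -0.03 and -0.01 with the 3 scalings. Genes at least 1.5-fold higher numbered 2 as deposited, 1 with each of the 3 scalings (Psmc3ip), 1 with the filter at the 75th percentile (Psmb6) and 4 averaged over probe sets, where Psmd9 and Psmd7 joined, the 2 genes then at least 2-fold higher. The 31 core and regulatory subunits above 1 became 29, 29 and 30 with the 3 scalings and 26 averaged over probe sets. The differences within the catalytic pairs could change only with quantile normalization and loess centring. Each of these genes has 1 probe set, with signals that clear every floor and filter, and a factor common to 1 array cancels. With quantile and loess scaling the differences were -0.39 and -0.39 for Psmb8 minus Psmb5, and -0.58 and -0.56 for Psmb9 minus Psmb6. Psmb10 minus Psmb7 was 0.06 and 0.007. The immunoproteasome minus core median ran from -0.25 to -0.18 over the 9 alternatives. The cause of each movement was not tested. No paired analysis was possible because each group has 1 array.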

Other observations

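Several genes have a dim second probe set that read differently from the represented one. The dimmer probe set of Psmd9 had signals of 27.6 in GPI-immunized and 5.9 in control splenocytes, and that of Psmd7 7.7 (GPI-immunized) and 1.1 (control). In the other direction, a dim probe set of Psma1 gave 18.9 after GPI-GST and 44.7 after GST, and one of Psmd11 gave 1.7 in GPI-immunized and 12.0 in control splenocytes. All of these were under the filter of 50.2. Among the 15 genes with at least 2 probe sets above the filter, the SD between probe sets was 0.14 on the log2 scale, and 4 genes (Psmc6, Psmd4, Psme4 and Psmf1) had probe sets on both sides of 1.

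RefSeq names 6 pseudogenes of 4 of the core subunits, Psma5, Psmb5, Psmb6 and Psmb7, and whether their transcripts contribute to the signals of these genes was not tested.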
